A study of Mus musculus with 14 samples.

Results

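The expression of mouse genes was compared between liver tumours in which a guide RNA targeted Keap1 and control tumours whose guide targeted GFP. The tumours were hepatocellular carcinomas driven by MYC, and their labels give the cell type as hepatocytes. The tumours were taken by their labels alone: 3 carried MYC with sgKeap1 and 4 carried MYC with sgGFP, 7 of the 14 libraries of the series. All of them therefore share MYC as the driver and a guide RNA, and differ in what the guide targets. A further 3 tumours, with MYC and a guide against Cul3 (sgCul3), were in the same deposited table, shared the estimate of the spread, and served as the group most like sgKeap1. The labels give no strain, age or sex of the mice, and do not say how MYC and the guides were delivered or whether the tumours came from separate animals, so that p-values measure the spread between these tumours. A gene count holds no information on the edit itself, and a guide can cut in some cells of a tumour and not in others.

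KEAP1 is an adaptor that holds the transcription factor NRF2 (gene Nfe2l2) and presents it to a ubiquitin ligase built on CUL3, so that NRF2 is degraded in unstressed cells. Electrophiles and oxidants modify cysteines of KEAP1, NRF2 then accumulates, pairs with small MAF proteins and binds antioxidant response elements near its target genes. In liver its known targets supply glutathione, thioredoxin and NADPH, and carry out the reduction, conjugation and export of reactive compounds. Loss of KEAP1 or CUL3 is a frequent way by which cancers keep NRF2 active.

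Reads assigned to genes ranged from 10739965 to 12008223 in the sgGFP tumours and were 11317551, 6505295 and 6754550 in sgKeap1 tumours 1 to 3. The deposited values are counts scaled between libraries, and levels below are these scaled counts with the 1 that had been added to each removed. Unless other libraries are named, values are listed for sgGFP tumours 1 to 4 first and then, after the word against, for sgKeap1 tumours 1 to 3. A change is a log2 fold change of sgKeap1 over sgGFP with its standard error, and a gene was called, and is said to have risen or fallen, at a limma adjusted p under 0.05. Hepatocyte markers were abundant in every tumour. Transthyretin (Ttr) stood at 14166, 24661, 18888 and 39909 against 22218, 43298 and 16515 scaled counts and the nuclear receptor gene Hnf4a at 3583, 2648, 6488 and 4757 against 4247, 2959.5 and 3027. The sgKeap1 tumours were not alike: tumour 2 stood apart on the first principal component. Its score there was 101, against 26.8 and 40.6 for sgKeap1 tumours 1 and 3 and -61.1 to -43.0 for the sgGFP tumours. The sgCul3 tumours scored -11.7 to 35.8. Albumin (Alb) stood at 27498, 79469.6, 117490.0 and 147489 against 73525, 1046670.0 and 81459 scaled counts and took 7.94% of the reads of tumour 2. Across log2 values of all genes tested, tumours 1 and 3 correlated at 0.974 and tumour 2 with them at 0.892 and 0.911, as a description of libraries of unequal depth. The highest correlation of sgKeap1 tumour 2 was with sgCul3 tumour 2, at 0.922.

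Of 13045 genes tested among 16821, 581 rose (4.45%) and 439 fell (3.37%) in sgKeap1, 7.82% in all. The counts of the gene lists below are to be read beside these shares, and a count near them is not a result about a list. All 3 sgKeap1 tumours lay above all 4 sgGFP tumours for 13.1% of genes tested and below them for 12.6%. The counts depended on single libraries. Calls fell to 207 and 112 without sgKeap1 tumour 3, 239 and 138 without sgKeap1 tumour 2, and 277 and 135 without sgGFP tumour 3. They came to 362 and 241 without sgGFP tumour 1, 249 fell without sgGFP tumour 2, and 827 and 689 were called without sgKeap1 tumour 1. Of the called genes, 175 that rose and 85 that fell passed under each alternative setting that tested them. These settings numbered 15 for 203 of the genes and 14 for 57 that fell under a minimum mean of 50, and no called gene changed sign under any of them. Below, every alternative means each one that tested the gene. The alternatives that end a call are named beside it, apart from a fit with the tumour number as a replicate block, whose calls are given with the effects of processing. With library totals set equal, the median change of all genes moved from -0.01 to -0.20 and 366 genes rose and 382 fell. Tumour 2 was the highest of the 3 sgKeap1 tumours for 58.2% of the genes that rose and for 37.1% of all genes tested, and the lowest for 67.4% of the genes that fell and 43.0% of all.

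**Figure D1:**
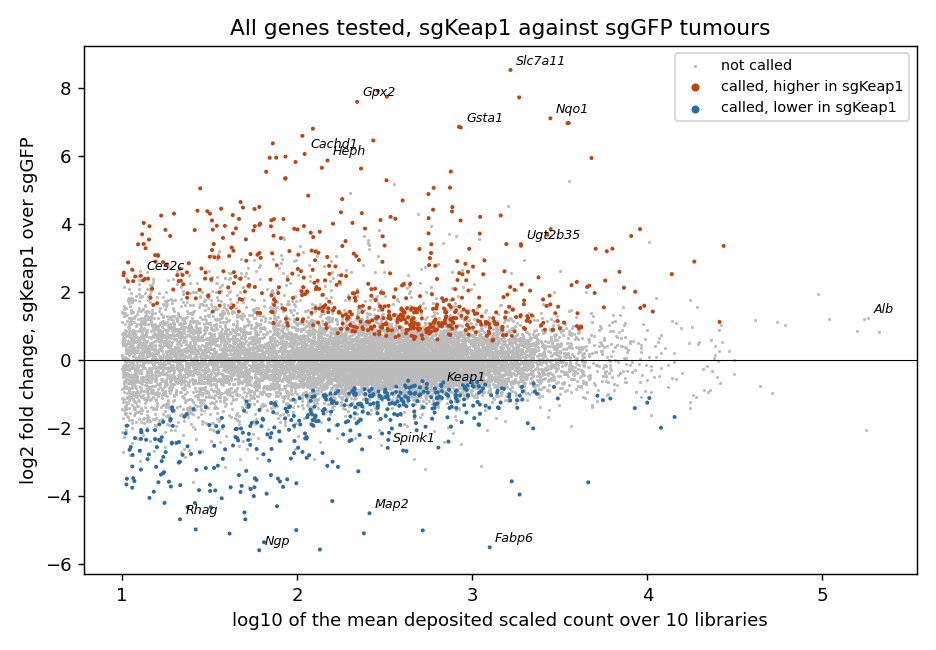
Change of each of 13045 genes in sgKeap1 over sgGFP tumours (log2 fold change, vertical axis) against its mean deposited scaled count over 10 libraries (log10, horizontal axis). Called genes are coloured, 581 higher and 439 lower, and the named genes show Slc7a11 at 8.53 ± 0.42 and Fabp6 at -5.51 ± 0.84.

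Keap1 transcript itself was lower where it was targeted. Keap1 (chromosome 9, 21229730 to 21239361 on GRCm38, minus strand) stood at 599, 582, 707 and 721 against 462, 414 and 287 scaled counts. Every sgKeap1 tumour lay below every sgGFP tumour, and the change was -0.77 ± 0.21, adjusted p = 0.048. The transcript was not lost, and this call was not firm: Keap1 missed the threshold without sgGFP tumours 1, 2, 3 or 4, without sgKeap1 tumours 2 or 3, with scarce genes kept in the test or with the 2 groups tested alone (adjusted p = 0.053 to 0.16). Cul3 stood at 1372, 1247, 1202 and 935 against 848, 596 and 895, likewise lower in every sgKeap1 tumour than in every sgGFP tumour, and did not pass (-0.62 ± 0.39, adjusted p = 0.31). Nfe2l2, which encodes NRF2, stood at 914, 1084, 842 and 629 against 611, 837 and 843, and the groups overlapped (-0.17 ± 0.29, adjusted p = 0.73). Of 14 measured genes of NRF2 and its control, 1 rose and 3 fell, at a median change of -0.28 beside -0.01 over all genes tested. The riser was Sqstm1, whose product p62 binds KEAP1, at 1819, 2327, 1796 and 1816 against 5243, 5157 and 4632 (1.38 ± 0.32, adjusted p = 0.028). The fallers beside Keap1 were Nfe2 (-2.34 ± 0.49, adjusted p = 0.019), the NRF2 relative of blood cells, and the small MAF gene Maff (-1.91 ± 0.52, adjusted p = 0.049). Sqstm1 missed the threshold without sgGFP tumours 1, 3 or 4, without sgKeap1 tumours 2 or 3, with quantile normalization or with equal totals (adjusted p = 0.051 to 0.089). Nfe2 missed the threshold without sgGFP tumour 3 or without sgKeap1 tumours 2 or 3 (adjusted p = 0.064 to 0.086), and Maff missed the threshold without sgGFP tumours 1, 2, 3 or 4, without sgKeap1 tumours 2 or 3, with no pseudocount beyond the added 1 or with equal totals (adjusted p = 0.05 to 0.19). The NRF2 competitor Bach1 (-0.11 ± 0.23, adjusted p = 0.78) and the small MAF gene Mafg (-0.23 ± 0.26, adjusted p = 0.57) did not pass.

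Myc, the driver, stood at 6758, 3712, 4707 and 4060.5 against 6146, 1018 and 4661 scaled counts and did not pass (-0.60 ± 0.51, adjusted p = 0.45). Tumour 2 held the least Myc of the 7 tumours, and tumours 1 and 3 lay within the sgGFP range. Without tumour 2 the change of Myc was 0.19 and was not called. Fn3k, a kinase that repairs glycated proteins and whose loss is known to limit NRF2, stood at 16.2, 9.21, 37.2 and 24.2 against 25.3, 197 and 28.9, with tumour 2 alone far above the rest (1.37 ± 0.92, adjusted p = 0.34). Its relative Fn3krp stood at 79.6, 89.0, 76.2 and 52.8 against 80.9, 56.8 and 85.1, with overlapping groups (adjusted p = 1).

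Of 15 genes of cystine import and glutathione synthesis tested, 7 rose and 0 fell, or 1 at an unadjusted p under 0.05, at a median of 1.24. Slc7a11, the transporting chain of the cystine exchanger xCT, stood at 4.05, 6.14, 9.74 and 13.4 against 4862, 2568 and 3672 scaled counts. It was close to silent in each control and abundant in each sgKeap1 tumour (8.53 ± 0.42, adjusted p = 2.2e-06). Its partner chain Slc3a2 stood at 1474, 1089, 925 and 1253 against 6988, 2516 and 4649 (1.89 ± 0.35, adjusted p = 0.01), and missed the threshold without sgKeap1 tumour 3 (adjusted p = 0.0502). Gclc, the catalytic subunit of the enzyme that starts glutathione synthesis, stood at 915, 1311, 1296 and 1647 against 20938, 15185 and 19098 (3.85 ± 0.29, adjusted p = 6.3e-05). Gclm, its modifier subunit, stood at 1702, 2209, 2127 and 2434 against 7741, 14104 and 10944 (2.34 ± 0.32, adjusted p = 0.0021). The lowest sgKeap1 tumour held 191 times the highest control for Slc7a11, 9.22 times for Gclc and 3.18 times for Gclm. Gss, which completes glutathione, reached 1.78 ± 0.27 and Gsr, which regenerates it with NADPH, 2.59 ± 0.26 (adjusted p = 0.0036 and 2.9e-04). Ggct, a cyclotransferase of glutathione breakdown, rose by less (1.41 ± 0.32, adjusted p = 0.025) and missed the threshold without sgGFP tumours 1 or 3, without sgKeap1 tumours 2 or 3 or with equal totals (adjusted p = 0.056 to 0.097). Counts of the list kept within 1.5 times under every alternative.

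Enzymes that remove peroxides changed unevenly. Of 16 tested, 3 rose and 1 fell, at a median of 0.70. Gpx2, a glutathione peroxidase best known from gut epithelium, stood at 0, 1.53, 0 and 0 against 861, 191 and 522. The controls held 2 reads between them, which makes the ratio of read rates 1575 (435 to 13021), an exact interval for counting error only (adjusted p = 0.003). Catalase (Cat) stood at 3701, 4571, 5192 and 4718 against 17664, 49304 and 20152 (2.53 ± 0.36, adjusted p = 0.0027) and was highest in tumour 2. Prdx1 stood at 5543, 7415, 5319.5 and 5905 against 13892, 17864 and 16778, a smaller rise without overlap (1.42 ± 0.24, adjusted p = 0.0068). The plasma peroxidase gene Gpx3 fell, from 2287, 743, 988 and 682 to 345, 186 and 289 (-1.96 ± 0.45, adjusted p = 0.026), and missed the threshold without sgGFP tumour 3 or without sgKeap1 tumours 2 or 3 (adjusted p = 0.064 to 0.11). Gpx4, the lipid peroxidase, was higher in every sgKeap1 tumour than in every control and missed the threshold (0.83 ± 0.23, adjusted p = 0.051), and mitochondrial Sod2 overlapped (-0.09 ± 0.20, adjusted p = 0.78).

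In the thioredoxin system 3 of 15 genes rose and 1 fell. Srxn1, which repairs overoxidised peroxiredoxins, stood at 47.2, 107, 50.5 and 56.4 against 7861, 8317 and 7704 scaled counts. The sgKeap1 tumours lay close to each other, and the lowest of them held 72.2 times the highest control (6.97 ± 0.35, adjusted p = 2.2e-06). Txnrd1, the thioredoxin reductase of the cytosol, stood at 1706, 1544, 1531 and 1232 against 7572, 6071 and 6847 (2.19 ± 0.22, adjusted p = 2.9e-04), and Txn1, its substrate, rose by 1.53 ± 0.27 (adjusted p = 0.0083). The faller was the mitochondrial glutaredoxin gene Glrx2 (-0.62 ± 0.17, adjusted p = 0.046), which missed the threshold without sgGFP tumours 1, 2, 3 or 4, without sgKeap1 tumours 1, 2 or 3, with scarce genes kept in the test, with quantile normalization, with equal totals or with the 2 groups tested alone (adjusted p = 0.053 to 0.14).

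NADPH is the electron source of these reductases, and 5 of 15 genes that supply it rose, while 0 fell, or 1 at an unadjusted p under 0.05. Pgd, the second dehydrogenase of the pentose phosphate pathway, stood at 1776, 1157, 1716 and 1414 against 9279, 4713 and 6649 (2.15 ± 0.29, adjusted p = 0.0019). Malic enzyme, Me1, stood at 134, 422, 285 and 377 against 1820.0, 1423 and 1882 (2.59 ± 0.36, adjusted p = 0.0021). Neither overlapped the controls. G6pdx, the first enzyme of that pathway, overlapped (0.51 ± 0.35, adjusted p = 0.36), as did Taldo1 (0.48 ± 0.28, adjusted p = 0.28), and Tkt was higher without overlap but missed the threshold (0.87 ± 0.26, adjusted p = 0.06). The other risers were Idh1 (1.38 ± 0.33, adjusted p = 0.032), Rpia (0.91 ± 0.20, adjusted p = 0.023) and Rpe (1.22 ± 0.31, adjusted p = 0.039). Idh1 missed the threshold without sgGFP tumours 1, 2 or 3 or without sgKeap1 tumours 2 or 3 (adjusted p = 0.055 to 0.12). Rpia missed the threshold without sgGFP tumours 2 or 3, without sgKeap1 tumour 3 or with equal totals (adjusted p = 0.053 to 0.14). Rpe missed the threshold without sgGFP tumours 1, 2, 3 or 4, without sgKeap1 tumours 2 or 3, with equal totals or with the 2 groups tested alone (adjusted p = 0.059 to 0.13). The count fell to 2 without sgGFP tumours 2 or 3 or sgKeap1 tumour 3, and to 3 without sgGFP tumour 1 or sgKeap1 tumour 2 and with equal totals.

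**Figure D2:**
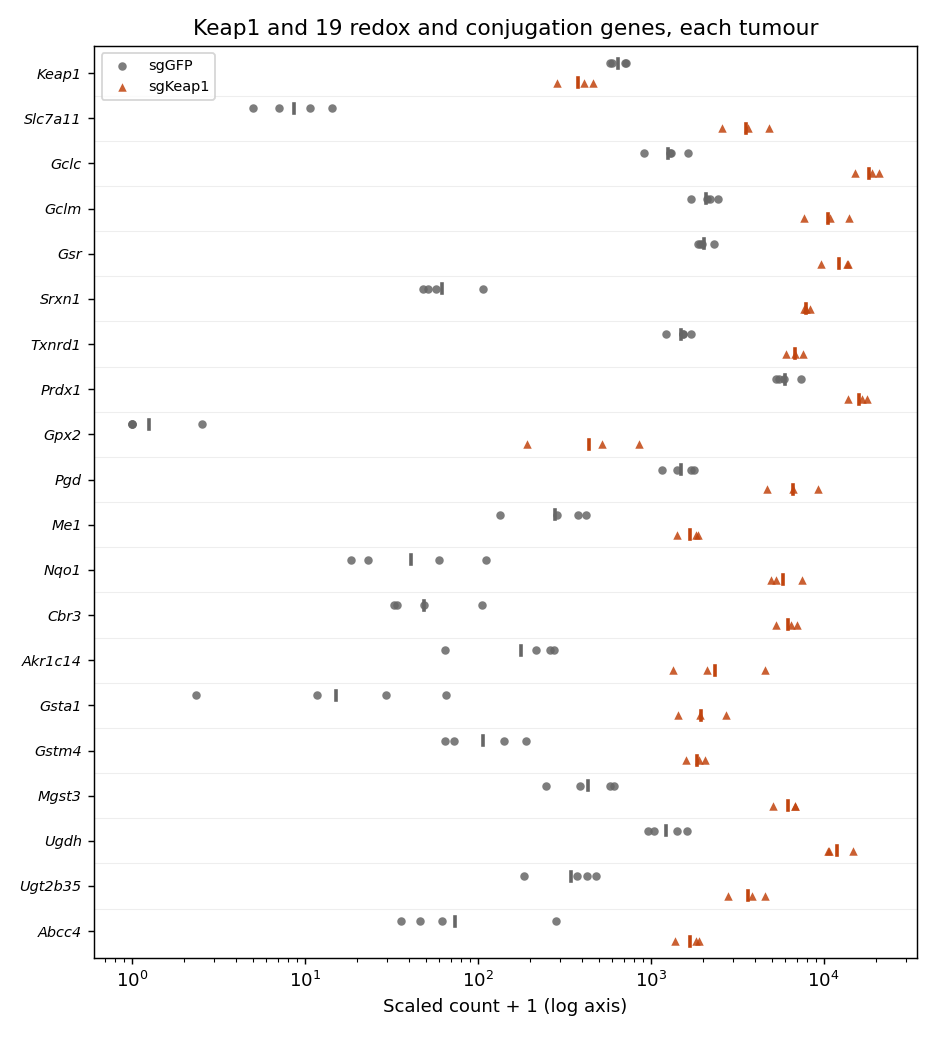
Scaled count plus 1 (log axis) of Keap1 and 19 genes of redox supply, reduction, conjugation and export in each sgGFP tumour (grey circles) and each sgKeap1 tumour (orange triangles). Bars mark the geometric mean of a group. Keap1 lies lower and every other gene shown lies higher in all sgKeap1 tumours.

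Reductases and hydrolases of reactive carbonyls, quinones and epoxides formed one of the groups with most members called. Of 22 tested, 10 rose and 0 fell, or 2 at an unadjusted p under 0.05, at a median of 1.60, and 8 of the 10 passed under every alternative. Nqo1, the quinone reductase, stood at 17.5, 22.2, 58.5 and 110.1 against 4955, 5329 and 7498 scaled counts (7.11 ± 0.55, adjusted p = 6.3e-05). Carbonyl reductase 3, Cbr3, stood at 31.7, 105, 47.8 and 33.1 against 6486, 5321 and 7035 (6.96 ± 0.35, adjusted p = 2.2e-06), and its neighbour in function Cbr1 at 437, 1323, 1368 and 2553 against 11928, 16869 and 16522 (3.64 ± 0.47, adjusted p = 0.0015). Both carbonyl reductase genes lay above all controls, Cbr1 from a higher control level. Ptgr1, which reduces alkenal double bonds, stood at 147, 260.1, 145 and 156 against 9484, 11337 and 11167 (5.94 ± 0.46, adjusted p = 6.3e-05). The aldo-keto reductase genes Akr1c14 (3.72 ± 0.56, adjusted p = 0.0036) and Akr1c19 (2.38 ± 0.25, adjusted p = 5.0e-04), microsomal epoxide hydrolase Ephx1 (2.43 ± 0.37, adjusted p = 0.0037) and aldehyde oxidase Aox1 (3.64 ± 0.59, adjusted p = 0.0058) rose with them. Among aldehyde dehydrogenases 1 of 16 rose (6.25%, beside 4.45% of all genes tested) and 2 fell (12.5%, beside 3.37%). The riser was Aldh1a1 (515, 1486, 873 and 631 against 3125, 4551 and 2580.1, change 2.04 ± 0.37, adjusted p = 0.01). Aldh1b1 (-1.05 ± 0.22, adjusted p = 0.018) and Aldh5a1 (-0.74 ± 0.19, adjusted p = 0.043) fell there. Aldh1b1 missed the threshold without sgKeap1 tumours 2 or 3 (adjusted p = 0.062 to 0.068), and Aldh5a1 missed the threshold without sgGFP tumours 1, 2, 3 or 4, without sgKeap1 tumours 2 or 3, with equal totals or with the 2 groups tested alone (adjusted p = 0.051 to 0.15). A second aldehyde dehydrogenase rose without sgGFP tumour 1, without sgKeap1 tumour 1 and with quantile normalization.

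Carboxylesterases hydrolyse esters of drugs and lipids, and 4 of 13 rose, while 0 was lower even at an unadjusted p under 0.05. Ces1f stood at 2.70, 6.14, 2.66 and 1.79 against 344, 1646 and 154 (6.45 ± 0.79, adjusted p = 0.0011) and Ces1b at 10.1, 61.4, 32.8 and 83.2 against 790.3, 1559 and 811 (4.69 ± 0.62, adjusted p = 0.0016). Both were highest in tumour 2, and both stayed above the controls in tumours 1 and 3. Ces1g (2.79 ± 0.61, adjusted p = 0.022) and the scarce Ces2c (2.48 ± 0.48, adjusted p = 0.014) were the others. The change of Ces2c was 1.57 with a pseudocount of 5, and Ces1g missed the threshold without sgKeap1 tumours 2 or 3 (adjusted p = 0.079 to 0.083). These genes lie in clusters of close copies whose reads may have been split between members.

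Glutathione S-transferases attach glutathione to electrophiles. Of 23 tested, 11 rose and 0 fell, also 0 at an unadjusted p under 0.05, at a median of 2.01. Gsta1 stood at 1.35, 10.7, 28.3 and 64.4 against 1432, 2708 and 1916 (6.83 ± 0.82, adjusted p = 9.8e-04), and the lowest sgKeap1 tumour held 22.2 times the highest control. Gsta2 (4.25 ± 0.48, adjusted p = 7.3e-04), Gstm4 (4.10 ± 0.34, adjusted p = 9.5e-05) and Gstm2 (4.37 ± 0.50, adjusted p = 7.9e-04) rose as well. Gstp2 was scarce in controls at 6.07, 2.30, 0.886 and 7.16 against 187, 60.8 and 141 (4.44 ± 0.54, adjusted p = 0.001), while Gstp1, its abundant copy, stood at 1573, 1113, 1736 and 1734 against 3897, 1830.4 and 3027 and missed the threshold (0.88 ± 0.29, adjusted p = 0.079). The membrane-bound enzymes Mgst3 (617, 581, 247 and 388 against 5122, 6823 and 6867, change 3.84 ± 0.51, adjusted p = 0.0017) and Mgst1 (3555, 5769, 3729 and 5359 against 16727, 75860.4 and 29414, change 2.89 ± 0.55, adjusted p = 0.012) rose in all 3 tumours. The Gsta, Gstm and Gstp genes are families of near copies, so the split of reads within each family is uncertain. Of these transferases 7 rose without sgKeap1 tumour 3.

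Glucuronidation joins a sugar acid to compounds for export. Of 14 genes tested, 8 rose and 0 fell, also 0 at an unadjusted p under 0.05, at a median of 2.91. Ugp2, which makes UDP-glucose, stood at 853, 1392, 1507 and 1380.0 against 7739, 16468 and 11941 (3.20 ± 0.28, adjusted p = 1.5e-04). Ugdh, which oxidises it to UDP-glucuronic acid, stood at 964, 1046, 1415 and 1612 against 10756, 14757 and 10648 (3.27 ± 0.26, adjusted p = 7.5e-05). Neither had an sgKeap1 tumour near the control range. Among the transferases that use this sugar, Ugt2b35 (185, 479, 428 and 374 against 2790.1, 4609.5 and 3863, change 3.40 ± 0.43, adjusted p = 0.0013), Ugt2b34 (2.20 ± 0.35, adjusted p = 0.0044) and Ugt2b1 (12.8, 21.5, 31.0 and 28.6 against 436, 1089 and 238, change 4.32 ± 0.75, adjusted p = 0.0076) rose in every tumour. Without sgGFP tumour 3 or sgKeap1 tumour 3 the count was 5. None of 9 sulfotransferases was called by limma, at a median of 0.04, and 1 was lower at an unadjusted p under 0.05.

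Of 51 cytochrome P450 genes of families 1 to 4 tested, 6 rose (11.8%, beside 4.45% of all genes) and 0 fell, or 1 at an unadjusted p under 0.05. Changes were positive in 41, at a median of 1.79. Cyp2a5 stood at 8.77, 9.97, 38.1 and 40.3 against 4388, 11098 and 1936 (7.72 ± 0.62, adjusted p = 7.5e-05) and its close copy Cyp2a4 at 0.675, 0.767, 8.86 and 11.6 against 217, 7861 and 170.3 (6.86 ± 1.35, adjusted p = 0.015). Both were far higher in tumour 2 than in tumours 1 and 3, and those lay above all controls. Cyp1a1, a target of the aryl hydrocarbon receptor, stood at 0, 0, 0.886 and 0 against 21.2, 79.1 and 36.1, from 1 read over the controls, a ratio of 188 (32.9 to 7504) (adjusted p = 0.0024). The count was 3 without sgGFP tumours 1 or 3 or without sgKeap1 tumours 2 or 3. The summed level of the family moved with tumour 2: it was 5784 to 22642 in sgGFP tumours, 14844 and 13224 in sgKeap1 tumours 1 and 3, and 159318 in tumour 2. In sgCul3 tumours 1 to 3 it was 6212, 40255 and 12546.5. The part of the liver transcripts of sgKeap1 tumour 2 in the positive median was not tested.

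Of 20 ABC export pump genes 3 rose and 0 fell, or 3 at an unadjusted p under 0.05, at a median of -0.23. Abcc4 stood at 282, 61.4, 45.2 and 34.9 against 1826, 1907 and 1378 (4.50 ± 0.58, adjusted p = 0.0015) and Abcc3 at 185, 134, 94.8 and 72.5 against 1546, 1376 and 870.1 (3.40 ± 0.46, adjusted p = 0.0019). Both pumps move glucuronides and other conjugates across the basolateral membrane into blood, and all sgKeap1 tumours lay above all controls. Abcc2, the canalicular pump for conjugates, rose by less (1.63 ± 0.33, adjusted p = 0.016) and missed the threshold without sgKeap1 tumour 3 (adjusted p = 0.067). None of 10 uptake carriers of bile acids and anions was called, with 2 higher and 1 lower at an unadjusted p under 0.05.

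Genes of bile acid synthesis were called in 1 direction. Of 19 bile acid synthesis genes 5 rose, with 0 lower even at an unadjusted p under 0.05, at a median of 0.40. Cyp7b1 stood at 2.02, 0, 3.54 and 1.79 against 141, 251 and 232 (5.82 ± 0.42, adjusted p = 6.3e-05) and Cyp8b1 at 10.8, 7.67, 11.5 and 7.16 against 108, 349 and 107 (3.86 ± 0.51, adjusted p = 0.0016), both beyond the control range in each tumour. Cyp7a1, the rate-limiting enzyme of the classical route, stood at 2.70, 3.07, 31.9 and 17.9 against 12.3, 103 and 27.4 and overlapped (1.65 ± 0.80, adjusted p = 0.2). The count was 3 without sgGFP tumours 1 or 2 or without sgKeap1 tumours 2 or 3. Fabp6, a bile acid binding protein of the ileum, went the other way, from 1087, 5110.1, 2246 and 2491 to 98.1, 10.1 and 114 (-5.51 ± 0.84, adjusted p = 0.0037).

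Of 27 genes of heme breakdown, ferritin and iron 6 rose and 0 fell, or 3 at an unadjusted p under 0.05, at a median of 0.31. Slc48a1, which moves heme out of lysosomes, stood at 215, 180.3, 129 and 95.8 against 1641, 959 and 1084 (3.0 ± 0.33, adjusted p = 6.4e-04). Blvrb, a biliverdin reductase, stood at 349, 431, 300.3 and 395 against 3816, 3973 and 3528 (3.36 ± 0.39, adjusted p = 8.1e-04) and ferritin light chain, Ftl1, at 3393, 3608, 4532 and 6993 against 16983, 11141 and 12701 (1.59 ± 0.30, adjusted p = 0.012). Hmox1, heme oxygenase and a textbook NRF2 target, did not rise detectably: it stood at 1993, 1648, 244 and 129.8 against 781, 279.7 and 436, and the controls alone spanned a wide range (-0.32 ± 0.84, adjusted p = 0.83). Hepcidin, Hamp, the hormone that limits iron export, stood at 373, 338, 221 and 118 against 1559, 4164 and 1948 (3.27 ± 0.51, adjusted p = 0.0046), and its copy Hamp2 at 0.675, 1.53, 2.66 and 2.68 against 34.3, 2151 and 82.3 (5.63 ± 1.23, adjusted p = 0.022). Hamp2 missed the threshold without sgGFP tumour 3 or without sgKeap1 tumour 3 (adjusted p = 0.054). Ferritin heavy chain, Fth1 (1.12 ± 0.30, adjusted p = 0.047), missed the threshold without sgGFP tumours 1, 2, 3 or 4, without sgKeap1 tumours 1, 2 or 3, with scarce genes kept in the test, with quantile normalization, with equal totals or with the 2 groups tested alone (adjusted p = 0.058 to 0.12). Among 19 metallothioneins and zinc carriers 1 rose (5.26%, beside 4.45% of all genes tested). That gene was Mt3, the brain metallothionein, at 4.72, 0.767, 0.886 and 3.58 against 1509, 879.7 and 527 (7.74 ± 0.88, adjusted p = 7.3e-04), whereas the abundant Mt1 (0.09 ± 0.38, adjusted p = 0.89) and Mt2 (0.53 ± 0.37, adjusted p = 0.36) overlapped.

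The remaining genes among the 20 with the highest change were of varied known roles. Slc5a4b, of the sodium-glucose transporter family, stood at 0.675, 0.767, 0 and 0 against 184, 507 and 183, with 2 reads over the controls and a ratio of 628 (173 to 5202). Tekt5, a tektin of sperm flagella, stood at 1.35, 0, 0 and 0 against 159, 375 and 172, also with 2 reads over the controls, a ratio of 519.9 (143 to 4305). In both, the controls were at or next to zero and each sgKeap1 tumour was clearly above (adjusted p = 1.2e-04 and 0.0091). Cachd1, a relative of calcium channel subunits, stood at 6.07, 2.30, 2.66 and 0.895 against 363, 259 and 310.2 (6.06 ± 0.45, adjusted p = 6.3e-05) and the tight junction gene Cldn3 at 12.1, 11.5, 30.1 and 18.8 against 552, 1259 and 567 (5.28 ± 0.64, adjusted p = 0.001). Heph, which encodes the ferroxidase hephaestin, stood at 5.40, 3.84, 15.1 and 2.68 against 279, 564 and 559.9 (5.87 ± 0.64, adjusted p = 5.9e-04). Hspb8, a small heat shock protein, stood at 16.2, 21.5, 100.1 and 111 against 1435, 1816 and 1505 (5.07 ± 0.59, adjusted p = 8.1e-04), and its co-chaperone Bag3 rose by less (0.96 ± 0.20, adjusted p = 0.017). Bag3 missed the threshold without sgKeap1 tumours 2 or 3 or with equal totals (adjusted p = 0.058 to 0.092). The aldo-keto reductase genes of the list of quinone, carbonyl and epoxide enzymes, Akr1c20 (0, 2.30, 12.4 and 6.26 against 143, 772 and 202, change 5.65 ± 1.04, adjusted p = 0.01) and Akr1c6 (5.40, 8.44, 49.6 and 20.6 against 231, 4232 and 528, change 5.54 ± 1.29, adjusted p = 0.029), were both highest in tumour 2. Akr1c20 missed the threshold without sgKeap1 tumour 2 (adjusted p = 0.051), and Akr1c6 missed the threshold without sgGFP tumours 1 or 2 or without sgKeap1 tumours 2 or 3 (adjusted p = 0.059 to 0.12).

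Regulators of growth showed a mixed picture. Of 15 G1 regulators 3 rose and 0 fell, or 3 at an unadjusted p under 0.05. Cyclin D1, Ccnd1, stood at 44.5, 34.5, 62.9 and 63.5 against 896, 1654 and 915 (4.42 ± 0.54, adjusted p = 0.001). Cdkn2a, whose products restrain CDK4 and MDM2, stood at 4.72, 5.37, 3.54 and 8.95 against 51.5, 231 and 165 (4.11 ± 0.60, adjusted p = 0.003), and its neighbour Cdkn2b rose from a low level (2.34 ± 0.50, adjusted p = 0.02). Cdkn2b missed the threshold without sgGFP tumour 3 or without sgKeap1 tumours 2 or 3 (adjusted p = 0.057 to 0.092). None of 35 cell cycle and DNA replication genes was called, at a median of 0.01, with 6 higher and 1 lower at an unadjusted p under 0.05. Mki67, the proliferation marker, stood at 2324, 1566, 1747 and 1504 against 1117, 503 and 1163, below the controls in every sgKeap1 tumour and short of the threshold (-1.02 ± 0.29, adjusted p = 0.058). None of 30 ribosome biogenesis genes was called either, at a median of -0.24, with 3 higher and 5 lower unadjusted.

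More fetal growth genes fell than rose, and genes of insulin and IGF signalling moved both ways. Of 23 oncofetal and imprinted genes 5 fell (21.7%, beside 3.37% of all genes tested) and 1 rose (4.35%, beside 4.45%), at a median of -0.44. Grb10, an imprinted adaptor that restrains the insulin receptor, stood at 3494, 2639.8, 7358 and 3911 against 264, 243 and 269.8 scaled counts (-3.95 ± 0.37, adjusted p = 2.4e-04). The sgKeap1 tumours lay close to each other, and the lowest control held 9.78 times the highest of them. Sall4, a transcription factor of fetal liver, stood at 206, 80.6, 196 and 139.6 against 4.90, 0 and 1.44 (-5.35 ± 0.59, adjusted p = 6.3e-04), and Trim71, another fetal gene, at 505, 327, 402 and 263 against 119, 40.5 and 82.3 (-2.27 ± 0.37, adjusted p = 0.006). Peg3, paternally expressed, stood at 2641, 1868, 3887 and 4909 against 152, 184 and 633 (-3.57 ± 0.77, adjusted p = 0.021) and missed the threshold without sgGFP tumour 3 or without sgKeap1 tumour 2 (adjusted p = 0.062 to 0.088). H19 (258879, 233832, 343886 and 251390.0 against 137248, 23283 and 84368), Igf2 (50832, 69235, 69739 and 78306 against 42863, 25269 and 35749) and Afp (28431, 33991, 25446 and 31473 against 15520.2, 20277 and 20934) were each lower in all sgKeap1 tumours than in all controls and missed the threshold. Their changes were -2.06 ± 0.71, -0.97 ± 0.42 and -0.66 ± 0.30 (adjusted p = 0.091, 0.16 and 0.17). The riser was Spp1, described with the bile duct markers below, and Cd24a, a surface protein of progenitor cells, was the fifth that fell (-2.90 ± 0.58, adjusted p = 0.015; Cd24a missed the threshold without sgKeap1 tumour 3 (adjusted p = 0.066)). Of 22 genes of IGF signalling 2 rose and 2 fell (9.09% each, beside 4.45% and 3.37% of all genes tested). Irs1, the insulin receptor substrate, rose (103, 99.0, 213 and 187 against 543, 793 and 521, change 2.08 ± 0.31, adjusted p = 0.003), and its relative Irs2 fell (149, 85.9, 232 and 68.0 against 27.0, 10.1 and 20.2, change -2.61 ± 0.53, adjusted p = 0.016). Igfbp1, a liver protein that binds IGFs, fell from 8591, 5529, 15284 and 6965 to 1665, 245 and 821 (-3.60 ± 0.71, adjusted p = 0.015). Irs2 missed the threshold without sgKeap1 tumours 2 or 3 (adjusted p = 0.058 to 0.069), and Igfbp1 missed the threshold without sgKeap1 tumours 2 or 3 (adjusted p = 0.053 to 0.057). The other riser, the kinase gene Pik3ca (0.72 ± 0.19, adjusted p = 0.045), missed the threshold without sgGFP tumours 1, 2, 3 or 4, without sgKeap1 tumours 1, 2 or 3, with scarce genes kept in the test, with equal totals or with the 2 groups tested alone (adjusted p = 0.0501 to 0.18).

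The 20 genes with the lowest changes had varied known roles. Map2, a microtubule protein of dendrites, stood at 459, 299, 683 and 503 against 17.2, 16.2 and 23.1 (-4.51 ± 0.36, adjusted p = 7.6e-05) and Bsn, which encodes the presynaptic scaffold bassoon, at 486, 390.5, 552 and 626 against 98.1, 62.8 and 77.9 (-2.66 ± 0.25, adjusted p = 2.4e-04). Slc4a9, an anion exchanger of kidney, stood at 544, 309, 767 and 618 against 40.0, 0 and 43.3 (-5.09 ± 0.89, adjusted p = 0.0078) and Tmed6, of the p24 family of cargo receptors, at 1907, 1876, 562 and 466 against 51.5, 12.2 and 36.1 (-5.01 ± 0.61, adjusted p = 0.001). All 4 genes were expressed in each control and lay far lower in each sgKeap1 tumour. Rap1gap2, a GTPase activator for RAP1 (-4.15 ± 0.61, adjusted p = 0.003), Unc13d, a priming factor of granule release (-3.11 ± 0.54, adjusted p = 0.0074), Cpm, a membrane carboxypeptidase (-2.70 ± 0.35, adjusted p = 0.0016), and Fam169a (-3.14 ± 0.36, adjusted p = 7.9e-04) passed under every alternative. The other genes among the 20 lowest were less firm. These were Dnajc6 (-2.99 ± 0.69), Atp10d (-2.87 ± 0.68), Adgrl1 (-2.80 ± 0.69), Cyfip2 (-2.73 ± 0.66), Atp4a (-2.68 ± 0.54) and Klf9 (-2.63 ± 0.64), with adjusted p of 0.016 to 0.035. Dnajc6 missed the threshold without sgGFP tumours 1, 2 or 3 or without sgKeap1 tumours 2 or 3 (adjusted p = 0.055 to 0.11). Atp10d missed the threshold without sgGFP tumours 2, 3 or 4, without sgKeap1 tumours 2 or 3 or with the 2 groups tested alone (adjusted p = 0.051 to 0.11). Adgrl1 missed the threshold without sgGFP tumours 1, 3 or 4 or without sgKeap1 tumours 1, 2 or 3 (adjusted p = 0.055 to 0.12). Cyfip2 missed the threshold without sgGFP tumours 1, 2 or 3 or without sgKeap1 tumours 2 or 3 (adjusted p = 0.053 to 0.12). Atp4a missed the threshold without sgGFP tumour 3 or without sgKeap1 tumours 2 or 3 (adjusted p = 0.053 to 0.072). Klf9 missed the threshold without sgGFP tumours 1 or 3 or without sgKeap1 tumours 2 or 3 (adjusted p = 0.075 to 0.13). Egln1, an oxygen sensor that marks HIF proteins for degradation, stood at 772, 729.6, 828 and 719 against 275, 142 and 150.1 (-2.06 ± 0.37, adjusted p = 0.0086), and 0 of the other 23 genes of oxygen sensing and HIF response was called, or 3 more without sgKeap1 tumour 1. Of all 24, Egln1 among them, changes were positive in 4, at a median of -0.29. At an unadjusted p under 0.05, 0 were higher and 5 lower.

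**Figure D3:**
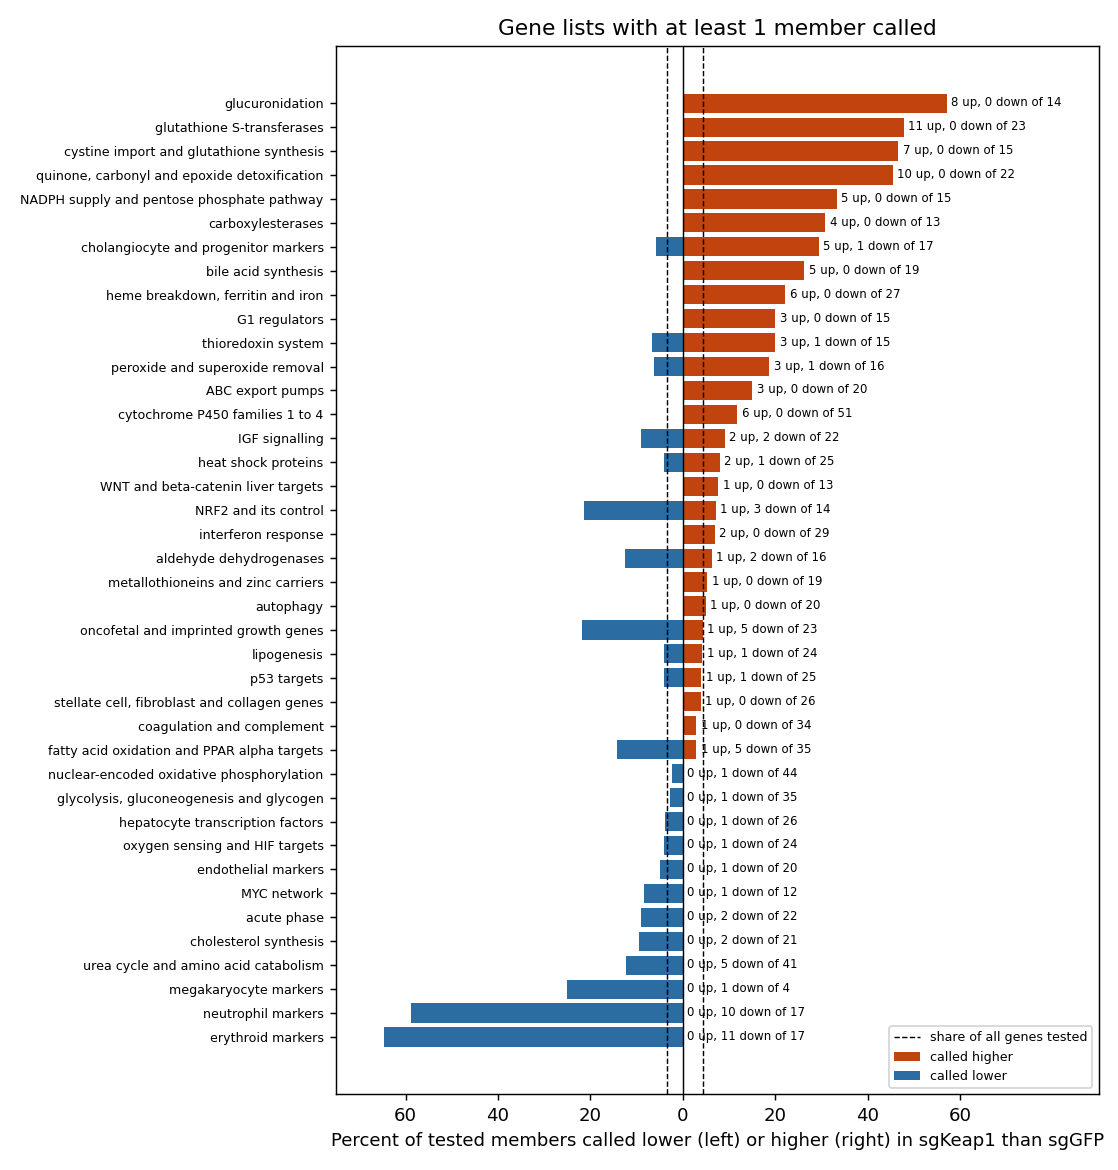
Percent of the tested members of each gene list called higher (right, orange) or lower (left, blue) in sgKeap1 than in sgGFP tumours, with the counts beside the bars. Dashed lines mark 4.45% and 3.37% of all genes tested. Glucuronidation has the highest share called higher, and erythroid and neutrophil markers have the highest shares called lower.

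In fatty acid oxidation, amino acid catabolism and cholesterol synthesis more genes fell than rose. Those that fell were 14.3%, 12.2% and 9.52% of members tested, beside 3.37% of all genes tested. In glycolysis, gluconeogenesis and glycogen metabolism the share was 2.86%, no higher than that of all genes. None of the called members of these 4 lists passed under every alternative. Of 35 genes of fatty acid oxidation and PPAR alpha targets 5 fell and 1 rose, at a median of -0.22. Cpt1a, which admits fatty acids to mitochondria, stood at 4417, 3413, 2594 and 1571 against 1065, 1210.2 and 915 (-1.40 ± 0.35, adjusted p = 0.037), and Acaa2, the last enzyme of the cycle, at 5200.4, 8820.1, 9271 and 9348 against 3720.1, 3671 and 3144 (-1.18 ± 0.29, adjusted p = 0.034). Angptl4, a secreted inhibitor of lipoprotein lipase, stood at 1211, 1112, 1422 and 1578 against 541, 732 and 521 (-1.16 ± 0.22, adjusted p = 0.012). In all 3 every sgKeap1 tumour lay below every control. Angptl4 missed the threshold without sgKeap1 tumour 3 (adjusted p = 0.064). Cpt1a missed the threshold without sgGFP tumours 1, 2 or 3 or without sgKeap1 tumours 1, 2 or 3 (adjusted p = 0.055 to 0.12), and Acaa2 missed the threshold without sgGFP tumours 2, 3 or 4 or without sgKeap1 tumours 2 or 3 (adjusted p = 0.06 to 0.12). The riser was Vnn1, the pantetheinase vanin 1 (4.01 ± 0.81, adjusted p = 0.016), which missed the threshold without sgKeap1 tumour 2 (adjusted p = 0.064). The number that fell was 0 without sgKeap1 tumour 3, 1 without sgGFP tumour 3, 2 without sgGFP tumour 2 or sgKeap1 tumour 2, and 3 without sgKeap1 tumour 1, where 3 rose. Of 41 genes of the urea cycle and amino acid catabolism 5 fell, at a median of -0.33. Got1, the cytosolic aspartate aminotransferase, stood at 1354, 1503, 2949 and 2219 against 707, 861 and 618 (-1.40 ± 0.30, adjusted p = 0.02) and Gnmt, which consumes S-adenosylmethionine, at 1978, 4765, 6029 and 3551 against 709, 1639.9 and 701 (-2.01 ± 0.49, adjusted p = 0.034). Got1 missed the threshold without sgGFP tumour 3 or without sgKeap1 tumour 3 (adjusted p = 0.0502 to 0.091), and Gnmt missed the threshold without sgGFP tumours 2, 3 or 4 or without sgKeap1 tumours 1 or 3 (adjusted p = 0.053 to 0.12). Here the count was 0 without sgGFP tumour 3 or sgKeap1 tumour 3, 1 without sgGFP tumour 2, 2 without sgGFP tumour 4 or with the 2 groups tested alone, and 3 without sgKeap1 tumour 1. Ldha was the one gene of 35 in glycolysis, gluconeogenesis and glycogen metabolism that fell, from 22611, 26442, 22275 and 11063 to 8521, 3760.2 and 7218 (-1.67 ± 0.40, adjusted p = 0.032). Ldha missed the threshold without sgGFP tumours 1, 2 or 3 or without sgKeap1 tumours 2 or 3 (adjusted p = 0.066 to 0.13). In that list 6 fell without sgKeap1 tumour 1, 2 without sgGFP tumour 4, 3 with equal totals, and 2 with a pseudocount of 5, quantile normalization or the 2 groups tested alone. In cholesterol synthesis 2 of 21 fell. The count was 0 without sgKeap1 tumours 2 or 3 and 1 without sgGFP tumours 2, 3 or 4 or with the 2 groups tested alone.

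Hepatocytes secrete most plasma proteins. None of 30 genes of albumin, apolipoproteins and carriers was called, at a median of 0.09, with 2 higher and 1 lower at an unadjusted p under 0.05. Their summed level was 250894 to 616298 in sgGFP tumours, 332907 and 317754 in sgKeap1 tumours 1 and 3, and 1711580 in tumour 2. Itih3, of the hyaluronan-binding inter-alpha inhibitor, stood at 11032, 14439.5, 12985 and 12085 against 4639, 4093 and 5539.7 (-1.41 ± 0.27, adjusted p = 0.012), and the fibrinogen chain gene Fga at 22763, 20434, 20742 and 9817 against 6083, 3462 and 4089 (-1.99 ± 0.45, adjusted p = 0.026). Both were lower in all sgKeap1 tumours, and Fga missed the threshold without sgGFP tumours 1, 2 or 3 or without sgKeap1 tumours 2 or 3 (adjusted p = 0.055 to 0.1). These were the 2 of 22 acute phase genes that fell, and 1 fell without each of sgGFP tumours 1, 2 or 3 or sgKeap1 tumours 2 or 3.

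The proteasome degrades damaged proteins and several of its subunits are known NRF2 targets. None of 32 subunits of the 26S proteasome was called, at a median of 0.16, with 4 higher and 4 lower at an unadjusted p under 0.05. None of 26 genes of the ATF4 response and serine synthesis was called either, at a median of -0.19, with 3 higher and 5 lower unadjusted. Of 29 interferon genes 2 rose (6.90%, beside 4.45% of all genes tested), at a median of 1.02. Among them was Mx1 (12.1, 25.3, 5.31 and 5.37 against 208, 365 and 417, change 4.73 ± 0.68, adjusted p = 0.0028). The count was 4 without sgKeap1 tumour 1. It was 1 without any single sgGFP tumour, without sgKeap1 tumours 2 or 3 and with the 2 groups tested alone.

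Many erythroid and neutrophil markers were lower in the sgKeap1 tumours. Of 17 erythroid markers 11 fell and 0 rose, at a median of -3.27, and 8 passed under every alternative. Rhag, a blood group protein of the red cell membrane, stood at 51.3, 60.6, 60.2 and 31.3 against 0, 0 and 0 scaled counts, at least 41.2-fold lower against a floor of 3 reads over the sgKeap1 group (adjusted p = 2.7e-04). Ermap, a red cell adhesion protein, stood at 60.7, 51.4, 84.1 and 52.8 against 0, 0 and 0, at least 49.6-fold lower (adjusted p = 2.5e-04). Slc4a1, the band 3 anion exchanger, stood at 432, 328, 306 and 214 against 2.45, 8.11 and 4.33 (-5.57 ± 0.83, adjusted p = 0.0033). Each control expressed these genes and each sgKeap1 tumour held few or no reads. Gata1, the erythroid transcription factor, stood at 29.0, 21.5, 28.3 and 16.1 against 0.817, 0 and 0, a ratio of 57.9 (10.2 to 2308) between the groups (adjusted p = 0.0021). Its fitted change of -3.49 ± 0.48 became -2.22 with a pseudocount of 5. Alas2, which starts heme synthesis in red cell precursors, stood at 314, 348, 616 and 513 against 89.9, 28.4 and 30.3 (-3.27 ± 0.71, adjusted p = 0.022), and missed the threshold without sgGFP tumour 3 or without sgKeap1 tumours 2 or 3 (adjusted p = 0.065 to 0.095). The globin gene Hbb-bs was still detected at 2694, 5418, 7165 and 8215 against 1429, 1439 and 1398 and did not pass (-1.93 ± 0.86, adjusted p = 0.17), and the transferrin receptor Tfrc, which tumours also express, overlapped (0.57 ± 0.28, adjusted p = 0.2). The summed level of the list, which includes Hbb-bs and Tfrc, was 10826 to 20869 in sgGFP and 10010.4 to 16433 in sgKeap1, and so overlapped. With a minimum mean of 50, 3 were called, since fewer markers then entered the test.

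Of 17 neutrophil markers 10 fell and 0 rose, at a median of -2.99. Mpo, myeloperoxidase of the granules, stood at 72.9, 226, 52.3 and 97.6 against 0.817, 2.03 and 2.89 (-4.68 ± 0.87, adjusted p = 0.011). Ngp, a granule protein, stood at 106, 287, 55.8 and 96.7 against 0, 0 and 1.44, with 1 read over the sgKeap1 tumours and a ratio of 336 (60.1 to 13298). Elane, neutrophil elastase, stood at 21.6, 81.3, 28.3 and 24.2 against 0.817, 0 and 1.44, a ratio of 47.2 (12.9 to 392) (adjusted p = 0.0036 and 0.0052). The summed level of the list was 2555 to 7681 in sgGFP and 632 to 3135 in sgKeap1, and so overlapped. The count was 4 without sgKeap1 tumours 2 or 3 and 3 with a minimum mean of 50. In whole tumours, fewer cells of a type and less RNA per cell cannot be told apart. The part of blood cells in other genes that fell, such as Nfe2 and Alas2, was not tested.

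Markers of other cell types were counted as well. None of 19 macrophage and Kupffer cell markers was called, nor any at an unadjusted p under 0.05 (median 0.02), with a summed level of 1816 to 8452 in sgGFP and 3609 to 5479 in sgKeap1. None of the 4 lymphocyte markers that could be tested was called, and 0 had an unadjusted p under 0.05. Of 4 megakaryocyte markers tested 1 fell (25.0%, beside 3.37% of all genes tested), a call not kept under every alternative. Their median was -0.01, and their summed level was 112 to 269 in sgGFP and 131 to 189 in sgKeap1. Of 26 stellate cell, fibroblast and collagen genes 1 rose (3.85%, beside 4.45% of all genes tested). It was Vim (775, 1244, 778 and 889 against 1884, 2613 and 1600.3, change 1.14 ± 0.24, adjusted p = 0.019), while Col1a1 overlapped (-0.21 ± 0.37, adjusted p = 0.74). Vim missed the threshold without sgGFP tumour 3 or without sgKeap1 tumour 2 (adjusted p = 0.059 to 0.073). Of 17 genes listed as cholangiocyte and progenitor markers 5 rose (29.4%) and 1 fell, at a median of 0.72. Changes were positive in 11, and 8 were higher and 3 lower at an unadjusted p under 0.05. Krt19, a keratin of bile duct cells, stood at 26.3, 26.9, 11.5 and 7.16 against 876, 193 and 82.3, led by tumour 1 (3.77 ± 1.02, adjusted p = 0.048), and osteopontin, Spp1, at 81.6, 164, 121 and 64.4 against 611, 738 and 251 (2.23 ± 0.59, adjusted p = 0.044). Anxa13 (9.45, 13, 25.7 and 15.2 against 221, 75.0 and 299, change 3.35 ± 0.60, adjusted p = 0.0089), Tspan8 (2.94 ± 0.63, adjusted p = 0.02) and Ddit4l (6.07, 5.37, 4.43 and 8.05 against 86.6, 158 and 119.8, change 3.93 ± 0.39, adjusted p = 2.8e-04) were the other risers. Krt19 missed the threshold without sgGFP tumours 1, 2, 3 or 4, without sgKeap1 tumours 1, 2 or 3, with no pseudocount beyond the added 1, with a minimum mean of 50 or with equal totals (adjusted p = 0.052 to 0.13). Spp1 missed the threshold without sgGFP tumours 1, 2, 3 or 4, without sgKeap1 tumours 1, 2 or 3 or with equal totals (adjusted p = 0.051 to 0.16). Anxa13 missed the threshold without sgKeap1 tumour 3 (adjusted p = 0.052), and Tspan8 missed the threshold without sgGFP tumour 3 or without sgKeap1 tumour 3 (adjusted p = 0.06 to 0.095). Ddit4l was the 1 riser that passed under every alternative, and it is not an established marker of these cells. The faller was Cd24a, given above. The count that fell was 0 without sgKeap1 tumour 3 and 3 without sgGFP tumour 4. The count that rose was 1 without sgKeap1 tumour 3, 2 without sgGFP tumour 3, and 3 without sgGFP tumour 1 or sgKeap1 tumours 1 or 2 or with equal totals.

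The 10 genes with the largest standard deviation of log2 values among the 3 sgKeap1 tumours were all highest in tumour 2. Sult2a8, a sulfotransferase of bile acids, stood at 7.36, 5141 and 21.6 scaled counts in sgKeap1 tumours 1 to 3, and Mup3, a major urinary protein, at 66.2, 32244 and 28.9. The P450 genes Cyp2c37 (22.1, 14504 and 41.8) and Cyp2c69 (13.1, 3028 and 4.33) behaved alike in that tumours 1 and 3 stayed near the control levels of 1.35, 3.84, 24.8 and 23.3 and 0.675, 3.07, 4.43 and 7.16. The others were Slc22a26 (0.817, 1429 and 1.44), Cyp2c50 (26.2, 5512 and 10.1), Cyp2c54 (18.0, 4212 and 11.5), Cyp4f14 (3.27, 993 and 2.89), Inmt (29.4, 7263 and 50.5) and Ces3a (9.81, 1960.2 and 8.66). None of the 10 passed against sgGFP. Mup and Cyp2c genes are families of close copies, so single members are uncertain. Of 61 genes that rose in the 12 lists from cystine import to export pumps, 39 (63.9%) were highest in tumour 2, beside 58.2% of all genes that rose. Cat and Mgst1 were among them, while Gclc was lowest and Nqo1 intermediate in tumour 2. Mki67 (1117, 503 and 1163) and Myc (6146, 1018 and 4661) were both lowest in tumour 2. In the same tumour the Kupffer cell marker Clec4f stood at 879.7 scaled counts, against 46.6 and 51.9 in tumours 1 and 3. The 19 macrophage and Kupffer cell markers together, Clec4f among them, summed to 4972, 5479 and 3609 in sgKeap1 tumours 1 to 3. The part of cells from outside the tumour in these values was not tested.

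**Figure D4:**
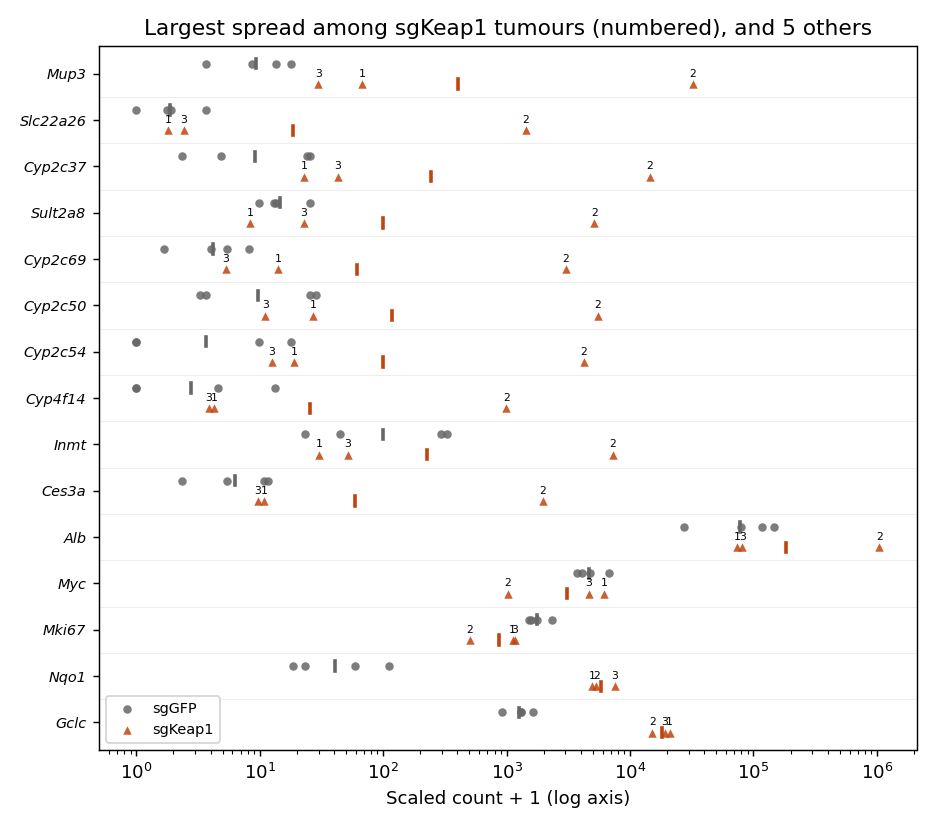
Scaled count plus 1 (log axis) in each tumour for the 10 genes with the largest spread among sgKeap1 tumours (orange triangles, numbered by tumour) and for Alb, Myc, Mki67, Nqo1 and Gclc. sgGFP tumours are grey circles and bars mark geometric means. Tumour 2 lies highest in the 10 upper genes, and not for Gclc or Nqo1.

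The sgKeap1 tumours were then compared directly with the sgCul3 tumours, since both guides hit parts of the same ligase. Of 13045 genes 4 were higher (0.0307%) and 4 lower (0.0307%) in sgKeap1, 0.0613% in all, while the groups did not overlap for 7.52% of genes upwards and 8.24% downwards. In sgGFP tumours 1 to 4, sgCul3 tumours 1 to 3 and sgKeap1 tumours 1 to 3 in that order, Bsn stood at 486, 390.5, 552 and 626, at 750.2, 452 and 525 and at 98.1, 62.8 and 77.9 scaled counts. Bsn was near the control level in sgCul3 and low in the sgKeap1 tumours (sgKeap1 minus sgCul3 -2.81 ± 0.27, adjusted p = 0.0054). Glipr2, a Golgi-associated protein, stood at 861, 885, 899 and 916, at 1130.2, 762 and 914 and at 342, 217 and 281 (-1.74 ± 0.21, adjusted p = 0.015). Fam169a stood at 354, 178, 236 and 249.7, at 217, 123 and 259 and at 15.5, 34.5 and 33.2 (-2.77 ± 0.39, adjusted p = 0.03), and Map2 stood at 218, 259.7 and 102 in sgCul3, between the other groups (-3.14 ± 0.39, adjusted p = 0.015).

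The 4 genes that were higher in sgKeap1 included Kitl, the ligand of the receptor KIT. It stood at 151, 166, 149.7 and 154 in sgGFP, 198, 196 and 134 in sgCul3 and 684, 598 and 574 in sgKeap1 (1.82 ± 0.21, adjusted p = 0.014). Rec8, a cohesin of meiosis, stood at 35.1, 26.9, 27.5 and 27.7, at 20.7, 43.4 and 14.1 and at 346, 259 and 205 (3.38 ± 0.40, adjusted p = 0.014). The sgCul3 tumours lay near the controls for both. Heph stood at 11.1, 36.3 and 3.91 in sgCul3 (4.96 ± 0.68, adjusted p = 0.029), and Ugt8a, which makes galactosylceramide and lies under the mean set for named genes, at 1.38, 0.886 and 0.782 in sgCul3 and 38.4, 213 and 46.2 in sgKeap1 (4.64 ± 0.63, adjusted p = 0.028). Without sgKeap1 tumour 3 none of the 8 passed. With the 2 groups tested alone 0 genes passed in either direction, where 627 and 534 had an unadjusted p under 0.05. Without sgCul3 tumour 1, 0 genes were higher and 1 lower, and without sgKeap1 tumour 1, 0 and 2. Without sgCul3 tumour 2 the counts were 6 and 3, and without sgCul3 tumour 3, 2 and 2. Without sgKeap1 tumour 2 they were 5 and 2. Bsn missed the threshold without sgKeap1 tumour 3 or with the 2 groups tested alone (adjusted p = 0.059 to 0.16). Glipr2 missed the threshold without sgCul3 tumours 1 or 3, without sgKeap1 tumour 3, with equal totals or with the 2 groups tested alone (adjusted p = 0.051 to 0.17). Fam169a missed the threshold without sgCul3 tumours 1 or 3, without sgKeap1 tumours 1, 2 or 3 or with the 2 groups tested alone (adjusted p = 0.056 to 0.17). Map2 missed the threshold without sgCul3 tumours 1 or 2, without sgKeap1 tumours 1, 2 or 3 or with the 2 groups tested alone (adjusted p = 0.052 to 0.17). Kitl missed the threshold without sgCul3 tumour 1, without sgKeap1 tumours 1 or 3, with equal totals or with the 2 groups tested alone (adjusted p = 0.08 to 0.17). Rec8 missed the threshold without sgCul3 tumour 1, without sgKeap1 tumours 1 or 3 or with the 2 groups tested alone (adjusted p = 0.08 to 0.17). Heph missed the threshold without sgCul3 tumours 1 or 3, without sgKeap1 tumours 1, 2 or 3, with a minimum mean of 50 or with the 2 groups tested alone (adjusted p = 0.069 to 0.21). Ugt8a missed the threshold without sgCul3 tumours 1, 2 or 3, without sgKeap1 tumours 1 or 3 or with the 2 groups tested alone (adjusted p = 0.071 to 0.17). No member of the lists of redox supply, conjugation and export was called between sgKeap1 and sgCul3, which does not show that they were alike, as the median difference was 0.55 for cystine and glutathione genes and 0.52 for glutathione S-transferases.

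**Figure D5:**
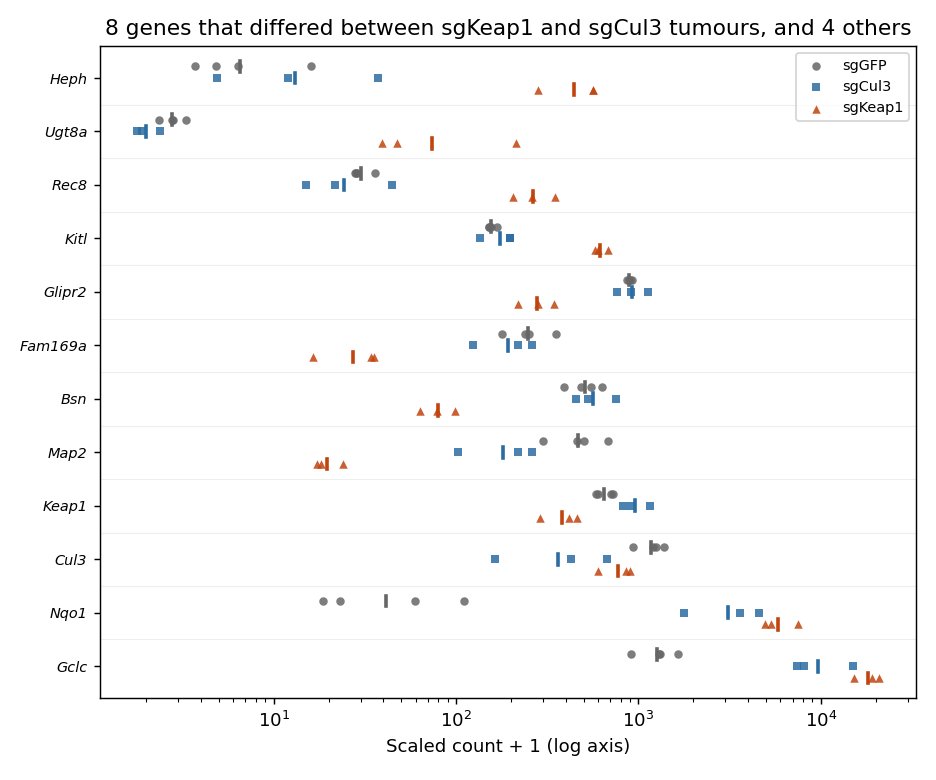
Scaled count plus 1 (log axis) of the 8 genes called between sgKeap1 (orange triangles) and sgCul3 (blue squares) tumours, with sgGFP tumours as grey circles, and of Keap1, Cul3, Nqo1 and Gclc. Bars mark geometric means. Heph, Ugt8a, Rec8 and Kitl lie highest, and Glipr2, Fam169a, Bsn and Map2 lowest, in all sgKeap1 tumours.

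The promoters of the called genes were searched for TGACNNNGC, the core of the antioxidant response element, on both strands of a window from 250 bases before to 50 bases after each RefSeq start (GRCm38.p6). A promoter was found for 451 of the 581 genes that rose, 311 of the 439 that fell and 9694 of the 13045 tested. The core was in 20.4% of the genes that rose, 13.5% of those that fell and 16.9% of those tested, and in 14.0% of all 27025 genes with a promoter in the table. CACGTG, the E-box bound by MYC, was in 9.31%, 8.36% and 11.8% of the same sets and in 8.09% of all. Among the 20 highest genes named, 17 had a promoter, and 2 of these (11.8%) held the core and 0 held CACGTG. The motifs can overlap at their ends, since CACGTG ends in the letters TG with which the core begins. Matches are descriptions of sequence, and the known elements of many targets lie outside such a window. A gene can have several RefSeq starts, and a match near any of them was counted. So that the cores can be compared, each match before a start is printed for the genes named above as having risen, where deposited values averaged 100 or more. Each is written on the strand that carries the core, with the core in capitals. The cores lie 23 to 229 bases before a RefSeq start. The first window of Abcc4 and those of Txnrd1 and Mgst1 lie 29245, 25143 and 135 bases inside the gene as GENCODE M21 gives it, so the starts used there are internal ones.
Cachd1: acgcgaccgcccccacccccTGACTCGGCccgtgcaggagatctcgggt
Abcc4: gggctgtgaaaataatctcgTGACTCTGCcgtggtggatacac
Abcc4: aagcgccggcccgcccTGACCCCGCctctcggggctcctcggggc
Ugdh: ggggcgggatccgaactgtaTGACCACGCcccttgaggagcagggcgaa
Ugdh: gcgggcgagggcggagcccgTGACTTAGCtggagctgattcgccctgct
Mgst1: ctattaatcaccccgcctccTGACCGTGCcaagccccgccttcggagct
Gclm: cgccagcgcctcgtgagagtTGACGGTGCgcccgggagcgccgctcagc
Txnrd1: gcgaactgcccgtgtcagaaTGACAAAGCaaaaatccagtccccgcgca
Irs1: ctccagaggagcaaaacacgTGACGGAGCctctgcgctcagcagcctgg
Abcc2: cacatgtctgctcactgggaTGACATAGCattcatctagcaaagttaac
Prdx1: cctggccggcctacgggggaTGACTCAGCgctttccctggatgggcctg
Ggct: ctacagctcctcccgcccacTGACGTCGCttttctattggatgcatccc
On GRCm38.p6 these windows are, in the order shown, Cachd1 chr4:100776430-100776478 (minus strand), Abcc4 chr14:118676932-118676974 (minus strand), Abcc4 chr14:118706220-118706264 (plus strand), Ugdh chr5:65435908-65435956 (plus strand), Ugdh chr5:65435946-65435994 (minus strand), Mgst1 chr6:138140451-138140499 (minus strand). The rest are Gclm chr3:122245403-122245451 (minus strand), Txnrd1 chr10:82859094-82859142 (minus strand), Irs1 chr1:82291533-82291581 (plus strand), Abcc2 chr19:43782190-43782238 (plus strand), Prdx1 chr4:116685446-116685494 (minus strand) and Ggct chr6:54993013-54993061 (plus strand).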

How the data were processed

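RNA from mouse liver tumours was sequenced. Per the labels' protocols it was extracted with a Qiagen kit, and libraries were made with the Illumina TrueSeq RNA kit. The values the authors deposited are a signal: reads per gene, scaled between libraries. The submitters' processing notes name HTSeq, DESeq, Picard and mm10 without versions, and the aligner was not given in the sources used here. Each deposited value holds an added 1. It was subtracted, and the rest was divided by 1 step per library (0.675 to 2.03). After that, 100% of the values of every library were whole numbers of reads to within 0.1, which gave 6333025 to 12008223 reads per library. For a gene at 0 reads, 3 reads were taken as the upper bound of the expected count, which is 2.02 to 6.08 scaled counts. Such floors and the 95% exact intervals cover only counting error, as no molecular identifiers were used to count molecules. A table on other tumours was not used here.

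Groups came from the labels. Genes whose deposited values averaged 10 or more entered limma 3.58.1 (R 4.3.3), with a mean-variance trend, on log2 of the deposited value plus 1, so changes of scarce genes are understated. The test was two-sided, sgGFP, sgCul3 and sgKeap1 tumours shared 1 estimate of the spread, and Benjamini-Hochberg adjustment ran over all 13045 genes tested. The procedure was run on simulated counts with the same dispersion for all genes and no outlying library. That does not test it on tumours as unlike as these. Where a group had 0 reads its fold is a bound against 3 reads over the group, and with 1 to 3 reads the ratio of read rates is given.

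The comparison, the 50 gene lists and the naming rule were chosen with earlier results of these data known. The rule takes Keap1, Cul3, Nfe2l2, Myc, Fn3k and Fn3krp. To these it adds the 20 highest and 20 lowest changes against sgGFP, and 8 each way against sgCul3, among called genes averaging 100 or more whose groups do not overlap. From each list come at most 6 genes, those of lowest adjusted p. The last are the 10 genes (mean of 100 or more) that varied most among sgKeap1 tumours. Genes whose symbols mark them as predicted or as pseudogenes were passed over where size chose the gene. Atp10d, which GENCODE M21 gives as a polymorphic pseudogene, was therefore kept. Not all genes under the rule are described, and some results are not reported here. Chosen outside it, after values were seen, were Afp, Alb, Aox1, Bach1, Clec4f, Col1a1, Cyp7a1, Ephx1, G6pdx, Ggct, Gstp1, H19, Hbb-bs, Hmox1, Hnf4a, Igf2, Mafg, Mgst1, Mt1, Mt2, Sod2, Taldo1, Tfrc, Ttr and Ugt8a. The symbols of 23 genes were restored from their gene IDs. GENCODE M21 (GRCm38), which lists 16769 of the 16821 IDs, supplied coordinates, and RefSeq the promoters.

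Alternatives changed 1 choice each: the pseudocount (none beyond the added 1, or 5), the filter (none, or a minimum mean of 50), the scaling (quantile, or equal totals), a replicate block, the groups fitted (2 alone), and the libraries (each removed once).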

Additional observations from a re-analysis of the deposited data

Results flagged for a closer look

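Among the 4 sgGFP tumours, 1 lay far from the other 3 in 13 of 172 measures checked (gene levels and library totals). For normally distributed values chance alone does this in about 1 in 20 such groups. Scaled counts were not shown to follow that distribution, so the rate may not hold here. Tumour 1 was the highest for Abcc4 (282 scaled counts), Cyfip2 (524), Rec8 (35.1) and Tekt5 (1.35), and the lowest for Acaa2 (5200.4), Atp4a (238) and Ugt2b34 (764). Tumour 2 was the highest for Ptgr1 (260.1), Srxn1 (107), Sqstm1 (2327), Elane (81.3) and Gpx2 (1.53). Tumour 3 was the highest for Cyp1a1 (0.886). The values of Tekt5 and Gpx2 stand for 2 reads and that of Cyp1a1 for 1 read. The other 3 sgGFP tumours held no reads of these genes, so that any read in the remaining tumour is flagged. All 13 genes were called between sgKeap1 and sgGFP, and without the tumour that stood apart 12 of them passed. The exception was Cyfip2, at a limma adjusted p of 0.067 without sgGFP tumour 1.

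For 8 genes the response to the Keap1 guide differed from that to the Cul3 guide, by the limma test of the difference itself. The log2 difference, sgKeap1 minus sgCul3, was 4.96 for Heph, 4.64 for Ugt8a, 3.38 for Rec8 and 1.82 for Kitl. It was -3.14 for Map2, -2.81 for Bsn, -2.77 for Fam169a and -1.74 for Glipr2. All 3 sgKeap1 tumours lay beyond all 3 sgCul3 tumours for each of the 8. None of them passed with the 2 groups tested alone or without sgKeap1 tumour 3.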

How the results depend on the processing

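The counts of called genes varied most with the libraries included. Leaving out 1 library gave 207 to 827 genes higher and 112 to 689 lower in sgKeap1 than in sgGFP, against 581 and 439 with all. It gave 0 to 6 higher and 0 to 3 lower than in sgCul3, against 4 and 4. With equal totals 366 were higher than in sgGFP. Against sgCul3, 2 were higher with a minimum mean of 50, and 0 passed in either direction with the 2 groups tested alone. Apart from the replicate block below, the other settings left each count within 1.5 times. Of the 131 described genes called against sgGFP, 78 passed under all 15 alternatives, 7 more under the 14 that tested them, and 0 changed sign.

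The labels give the tumours numbers without a meaning. With the number as a replicate block, which leaves sgGFP tumour 4 without a partner, 975 genes were higher and 803 lower than in sgGFP, and 5 and 4 against sgCul3. Of the described genes called against sgGFP, 5 missed the threshold with the block, Keap1 (limma adjusted p = 0.063), Glrx2 (0.059), Fth1 and Rpe (0.053 each) and Adgrl1 (0.053). Deviations of same-numbered tumours correlated at 0.199, 0.0425 and -0.0941 (sgGFP with sgKeap1) and at 0.239, 0.518 and 0.0980 (sgCul3 with sgKeap1). Not every tumour correlated best with its own number, and the numbers were not taken to pair the tumours.

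Some described genes that were not called changed sign. Their log2 change with all libraries, and its range with 1 library left out, was Alb 1.23 (-0.020 to 1.90), Bach1 -0.11 (-0.22 to 0.013), Clec4f 1.20 (-0.17 to 1.93), Col1a1 -0.21 (-0.51 to 0.055), Fn3krp 0.0010 (-0.15 to 0.18), Hmox1 -0.32 (-1.02 to 0.28), Inmt 1.17 (-1.33 to 2.60), Mt1 0.092 (-0.10 to 0.37), Myc -0.60 (-1.10 to 0.19), Sod2 -0.094 (-0.20 to 0.0082), Sult2a8 2.74 (-0.069 to 4.48) and Ttr 0.15 (-0.24 to 0.45). With quantile normalization the change was -0.10 for Fn3krp and -0.16 for Mt1. With equal totals the change was -0.19 for Fn3krp, -0.11 for Mt1 and -0.050 for Ttr. With the replicate block the change was -0.15 for Fn3krp and 0.0082 for Sod2. The cause was not tested.

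Tests of the counts with edgeR and DESeq2 were planned and were not run. The check that decided this was made on the deposited values, with 1 added and scaled, and not on the reads recovered from them. sgKeap1 tumours 2 and 3 had fewer reads than the controls, and a gene that was not called is not shown to be unchanged.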

Other observations

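Transcripts of the mitochondrial genome overlapped between the groups. None of the 7 tested was called by limma, and 0 had an unadjusted p under 0.05, at a median log2 fold change of 1.11. In sgGFP tumours 1 to 4 they summed to 231959, 787271, 418066 and 1326700 scaled counts. The sums for sgKeap1 tumours 1 to 3 were 778230, 1733250 and 1075280.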
